A study of Mus musculus with 2 samples.

Results

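The Hoxa cluster is a run of homeobox genes on mouse chromosome 6, and 9 of its genes (Hoxa2, Hoxa3, Hoxa4, Hoxa5, Hoxa6, Hoxa7, Hoxa9, Hoxa10 and Hoxa11), of 21853 annotated protein-coding genes, were followed in the chromatin of young and aged hematopoietic stem cells. They were chosen as a gene family, by name, with earlier results of these data known. Accessibility was read at the transcription start site (TSS) of each gene with 500 bp on either side, in bins of 500 bp over the cluster (chr6:52155590-52260880, GRCm38) and in bins over the 200 kb on either side of it. The cells had been called by the authors' pipeline and held more than 3000 and fewer than 20000 fragments in peaks.

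The data came from single-cell ATAC-seq, in which a transposase cuts and tags open chromatin in single nuclei, so that each unique fragment marks an open stretch in 1 cell. Hematopoietic stem cells (HSCs) of C57BL/6 mice had been sorted as cells that carried Sca-1, c-kit and CD150 and lacked lineage markers (Lin-), IL-7, CD34, CD48 and Flt3, the labels' names for the sorted population. The young library came from mice at 10 weeks of age and the aged library from mice at 20 months, and the labels name no treatment or genetic change in either. How many mice stood behind each library is not given in the sources used here. With 1 library per age, no test between ages was possible and the spread among mice is not known.

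Hox proteins are homeodomain transcription factors that give cells their position along the body axis, and the genes of a cluster lie in the order in which they are used from head to tail. In blood, the Hoxa genes are active in stem and progenitor cells, where Hoxa9 supports self-renewal together with cofactors of the MEIS and PBX families, and they are shut as cells mature. The KMT2A (MLL) complex with menin keeps the cluster open, Polycomb complexes keep it closed, and CTCF sites separate its open and closed stretches.

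The young library gave 4887 cells with a median of 9890 fragments, and the aged library gave 3404 cells with a median of 11020 fragments. Values are fragments scaled to a total of 1000000 fragments in peaks (FPM), from 34680708 young and 26167963 aged in-peak fragments. Ratios are log2 of aged over young FPM. Each value stands with a 95% interval (exact Poisson for levels, exact binomial for ratios and shares), which covers counting error only and neither animals nor amplification. The libraries differed in fragment length, with 59.8% of young and 55.0% of aged fragments shorter than the DNA wrapped around 1 nucleosome, and 26 barcodes were shared between them. The promoters of 10 HSC marker genes had a median of 16.3 FPM in the young and 17.1 FPM in the aged library. Medians were 0.375 and 0.344 FPM for 5 T lymphoid genes and 0.606 and 0.688 FPM for 5 B lymphoid genes. They were 1.23 and 1.28 FPM for 6 granulocyte and monocyte genes and 2.22 and 1.34 FPM for 5 erythroid genes. Of the granulocyte and monocyte genes, Csf1r (2.83 and 1.22 FPM), Mpo and Ly6g were lower in the aged library. Elane (0.894 and 1.68 FPM), S100a8 and Cebpe were higher. Promoters of 5 megakaryocyte genes had medians of 22.0 and 20.4 FPM. No marker was at 0, and the summed level ranged from 4.09 FPM (T lymphoid) to 195 FPM (HSC) in the young and from 1.64 to 194 FPM for the same lists in the aged library. The part that such cells or the fragment lengths play in the values below was not tested.

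The promoters on which the results turn are shown first, so that the levels below can be read beside their sequence. They are RefSeq windows of GRCm38.p6 from 250 bases before to 50 bases after the annotated start, all on the minus strand of chromosome 6. Hoxa3 had the most open promoter of the cluster, Hoxa5 and Hoxa6 were the members whose intervals between ages excluded 0, and Hoxa9 had a low level at its principal start. Capitals mark the letters CCAAT, then GGGCGG, and then TGATTNAT, each on either strand.
Hoxa3, chr6:52213018-52213317: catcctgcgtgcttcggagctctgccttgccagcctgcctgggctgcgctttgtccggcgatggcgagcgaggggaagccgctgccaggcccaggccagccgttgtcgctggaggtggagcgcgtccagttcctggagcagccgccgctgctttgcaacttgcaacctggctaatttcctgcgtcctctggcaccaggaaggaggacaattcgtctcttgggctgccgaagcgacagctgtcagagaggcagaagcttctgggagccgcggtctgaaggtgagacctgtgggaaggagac
Hoxa5, chr6:52204538-52204837: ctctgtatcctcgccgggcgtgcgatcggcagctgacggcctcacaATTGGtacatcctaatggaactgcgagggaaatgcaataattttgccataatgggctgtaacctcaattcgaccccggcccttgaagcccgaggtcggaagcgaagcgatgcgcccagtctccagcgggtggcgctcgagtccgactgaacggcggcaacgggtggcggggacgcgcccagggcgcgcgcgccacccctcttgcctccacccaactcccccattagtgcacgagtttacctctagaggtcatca
Hoxa6, chr6:52208623-52208922: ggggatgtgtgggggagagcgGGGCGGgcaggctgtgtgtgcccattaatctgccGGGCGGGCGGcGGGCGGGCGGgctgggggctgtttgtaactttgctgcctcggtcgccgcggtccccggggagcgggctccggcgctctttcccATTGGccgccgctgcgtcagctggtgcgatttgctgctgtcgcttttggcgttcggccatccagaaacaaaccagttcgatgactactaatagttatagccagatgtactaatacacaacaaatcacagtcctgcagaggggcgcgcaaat
Hoxa9, chr6:52227321-52227620: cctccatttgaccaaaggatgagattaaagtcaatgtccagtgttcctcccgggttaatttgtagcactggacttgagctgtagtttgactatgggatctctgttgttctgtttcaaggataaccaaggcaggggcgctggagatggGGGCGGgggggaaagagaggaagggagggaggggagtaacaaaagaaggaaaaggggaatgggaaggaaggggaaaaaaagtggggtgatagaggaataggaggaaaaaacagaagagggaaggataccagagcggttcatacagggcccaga

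The windows differed in CpG content. The Hoxa5 window held 29 CpG dinucleotides, the Hoxa6 window 26 and the Hoxa3 window 20, whereas the Hoxa9 window held 4. The Hoxa6 window carried GGGCGG at 5 positions and CCAAT at 1, the Hoxa5 window carried CCAAT at 1 position, the Hoxa9 window carried GGGCGG at 1 position, and the Hoxa3 window carried none of these letters. Among 32851 RefSeq promoter windows of the same length, 37.4% held CCAAT and 35.7% held GGGCGG on either strand. The Hoxa2 window held CCAAT at 4 positions and was the only one of the 9 windows of 8 members with TGATTNAT, letters bound by HOX and PBX proteins together, which 3.22% of all windows held. These matches describe letters and not binding.

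Openness along the cluster followed no simple order from one end to the other. In the young library the levels ran from Hoxa3 (37.3 FPM, interval 35.3 to 39.4) through Hoxa7 (28.8 FPM), Hoxa5 (22.2 FPM), Hoxa4 (19.6 FPM), Hoxa10 (12.8 FPM), Hoxa6 (10.8 FPM), Hoxa2 (6.23 FPM) and Hoxa9 (5.07 FPM) to Hoxa11 (4.96 FPM, interval 4.25 to 5.76). The aged library gave the same order except that Hoxa11 (6.15 FPM) stood before Hoxa9 (5.04 FPM). Neighbours whose intervals overlapped were Hoxa5 and Hoxa4, Hoxa10 and Hoxa6, Hoxa2 and Hoxa9, and Hoxa9 and Hoxa11 in the young library, and Hoxa7 and Hoxa5, Hoxa6 and Hoxa2, Hoxa2 and Hoxa11, and Hoxa11 and Hoxa9 in the aged library. Among all 21853 promoters, the mean level of the members lay between the percentiles 40.9 (Hoxa9) and 82.6 (Hoxa3).

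**Figure D1:**
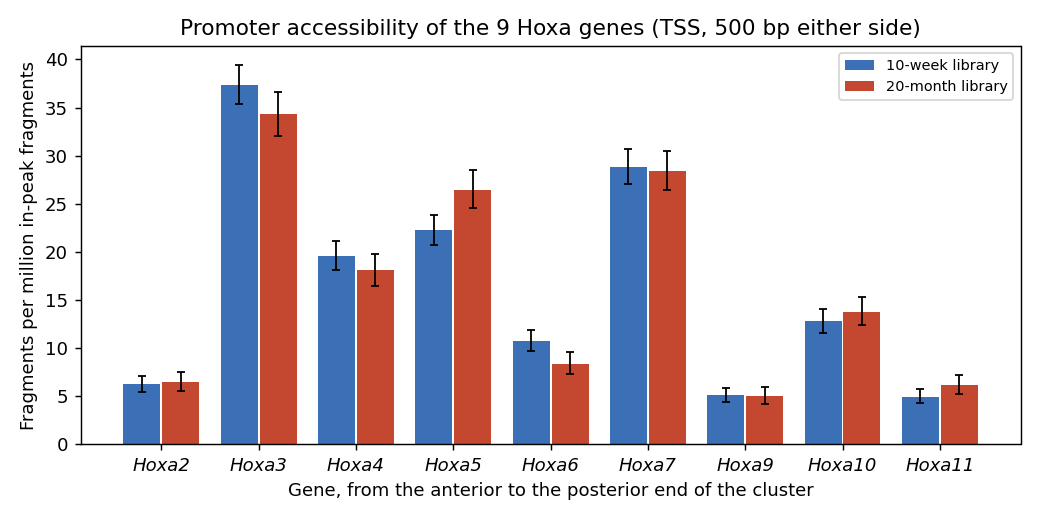
Bars give the FPM at the TSS of each of the 9 Hoxa genes (500 bp on either side) in the 10-week and the 20-month library, and whiskers the exact Poisson 95% interval. Hoxa3, Hoxa7 and Hoxa5 stood highest in both libraries, and Hoxa9, Hoxa11 and Hoxa2 stood lowest.

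The 9 promoters together were as open in the aged as in the young library within counting error. They held 5124 young and 3846 aged fragments, or 147.75 and 146.97 FPM, a log2 ratio of -0.0076 (interval -0.07 to 0.05). All 9 passed the minimum of 100 fragments over both libraries. A feature counted as past the fold when its log2 ratio lay beyond 0.32 in either direction. Past the fold, 0 members were higher and 1 (Hoxa6) was lower in the aged library. Over the 14354 promoters with 100 fragments, 8.13% were higher and 2.67% were lower. The members' median was -0.01 beside -0.07 over all these promoters. Scaled to fragments at all promoters in place of peaks, the sum became 0.06 (0.0019 to 0.12) and Hoxa6, at -0.29, was no longer past the fold, while Hoxa11, at 0.38 (0.06 to 0.70), was past it upward.

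At the principal starts of the anterior genes, the intervals between ages included 0. Hoxa2, which patterns the hindbrain and pharyngeal arches, had 216 young and 169 aged fragments at its TSS (52164831), or 6.23 and 6.46 FPM, a log2 ratio of 0.05 (-0.25 to 0.35). Hoxa3, needed for the thymus and parathyroid, had 1295 and 897 fragments, or 37.3 and 34.3 FPM, a ratio of -0.12 (-0.25 to 0.00051). The Hoxa3 interval lay below 0 when scaled to all nuclear fragments (-0.16, -0.28 to -0.03), in all called cells (-0.14, -0.26 to -0.02), when each fragment end was counted by itself (-0.15, -0.24 to -0.06) and in the cells below the median depth (-0.22, -0.43 to -0.0072). The principal start of Hoxa3 (52213115) lies between those of Hoxa6 and Hoxa7, and its window also holds the start of the gene model Gm28308, so that the fragments of both cannot be told apart. At its other coding start (52183855), between Hoxa2 and Hoxa4, Hoxa3 had 14 young and 20 aged fragments, and a change was not detectable at this depth, while a non-coding start near it (52184874) had 45 and 52 fragments, a ratio of 0.61 (0.01 to 1.22). Both anterior genes summed to 43.6 FPM in the young and 40.7 FPM in the aged library, a ratio of -0.10 (-0.21 to 0.02).

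The central genes held the clearest differences, and these pointed in opposite directions. Hoxa5, known for its part in lung development, had 771 young and 692 aged fragments at its TSS (52204587), or 22.2 FPM (20.7 to 23.9) and 26.4 FPM (24.5 to 28.5), and was higher in the aged library by 0.25 on the log2 scale (0.10 to 0.40). Hoxa6, a patterning gene of the trunk, had 373 and 219 fragments (TSS 52208722), or 10.8 FPM (9.69 to 11.9) and 8.37 FPM (7.30 to 9.55), and its ratio was -0.36 (-0.61 to -0.12). The levels of the 2 libraries did not overlap for either gene. No called peak of either library overlapped the Hoxa6 window, so its value comes from signal outside the peaks. The difference between the ratios of Hoxa5 and Hoxa6 was 0.61 (0.33 to 0.89). These were the 2 members whose intervals excluded 0, in opposite directions, so the interval of their difference adds no separate support.

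Bins within these windows showed both differences. At Hoxa5, the bin from 52204001 to 52204500, in its coding exon just inside the gene, held 484 young and 472 aged fragments, or 13.96 and 18.04 FPM, a ratio of 0.37 (0.18 to 0.56). At Hoxa6, the bin from 52208501 to 52209000, over and before the start, held 254 and 142 fragments, or 7.32 and 5.43 FPM, a ratio of -0.43 (-0.74 to -0.13). The next bin, inside the gene (52208001 to 52208500), held 102 and 58 fragments, a ratio of -0.41 (-0.90 to 0.07), an interval that included 0. It overlaps the window of the start, and a fragment with an end in each bin counts in both. Whether the difference reaches beyond the start is therefore not known. The Hoxa6 value depended on which cells and which total were used. It was -0.12 (-0.54 to 0.28) in the cells below the median depth of their library and -0.50 (-0.81 to -0.19) in those at or above it, and -0.27 with a window of 1000 bp on either side. Hoxa5 kept its direction under all 16 alternatives, between 0.22 and 0.32, but its interval included 0 with only the longer fragments (-0.02 to 0.65) and in cells thinned to 3000 fragments (-0.0091 to 0.54).

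The intervals of Hoxa4 and Hoxa7 included 0. Hoxa4, which patterns the neck, had 679 young and 473 aged fragments, or 19.6 and 18.1 FPM, a ratio of -0.12 (-0.29 to 0.06). Hoxa7, a gene raised together with Hoxa9 in leukaemias with KMT2A fusions, had 999 and 743 fragments, or 28.8 and 28.4 FPM, a ratio of -0.02 (-0.16 to 0.12). The direction of Hoxa7 turned with depth, from -0.30 (-0.54 to -0.06) in the cells below the median depth to 0.14 (-0.03 to 0.32) in the others. The Hoxa4 interval lay below 0 when each fragment end was counted by itself (-0.26 to -0.0075), where both ends of a fragment are not independent. The 4 central promoters together came to 81.4 and 81.3 FPM, a ratio of -0.0016 (-0.08 to 0.08).

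At the principal starts of the posterior genes, no interval excluded 0 with the values as scaled above. Hoxa9, the member best known in HSCs and in leukaemia, had only 176 young and 132 aged fragments at the start of its principal transcript (52227370), or 5.07 and 5.04 FPM, a ratio of -0.01 (-0.35 to 0.33). Hoxa10, active in blood progenitors and the uterus, had 443 and 360 fragments, or 12.8 and 13.8 FPM, a ratio of 0.11 (-0.10 to 0.31). Hoxa11, a limb and kidney gene, had 172 and 161 fragments, or 4.96 and 6.15 FPM, a ratio of 0.31 (-0.01 to 0.63). The Hoxa11 interval lay above 0 in all called cells (0.0039 to 0.62) and in the cells below the median depth, where the ratio was 0.80 (0.23 to 1.37), against 0.06 (-0.33 to 0.46) in the deeper cells. The posterior sum was 22.8 FPM in the young and 24.95 FPM in the aged library, a ratio of 0.13 (-0.02 to 0.28), and it lay above the anterior ratio by 0.23 (0.04 to 0.41). The anterior sum was mostly Hoxa3 (1295 of 1511 young fragments), whose principal start lies between those of Hoxa6 and Hoxa7, both central genes. The contrast is thus one of gene groups and not of positions along the cluster. Hoxa3 was an open promoter, and Hoxa9 and Hoxa11 were weakly open. Among all promoters the median ratio was -0.09 from 20 to 40 FPM and 0.14 under 10 FPM. Gene group and level therefore cannot be told apart here.

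**Figure D2:**
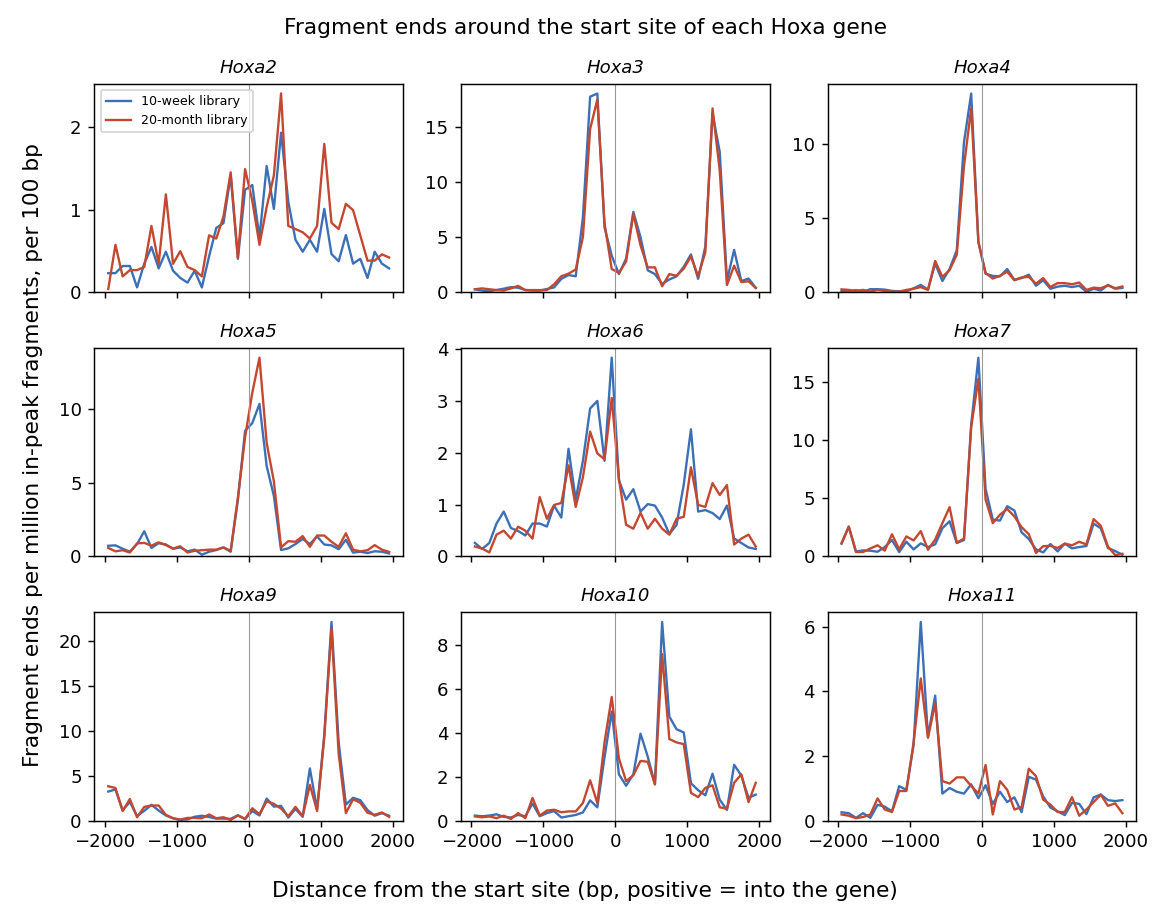
Fragment ends, scaled to 1000000 in-peak fragments, in steps of 100 bp, from 2 kb before to 2 kb after the TSS of each gene, for the 10-week and the 20-month library (each panel has its own vertical scale from 0). The aged curve stands above the young at the Hoxa5 summit and below it at the Hoxa6 summit, and the summit in the Hoxa9 panel lies past the TSS, inside the gene.

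The principal start, whose window overlapped no called peak, was not where Hoxa9 was most open. Its coding start inside the gene (52226189) counted 998 and 675 fragments, a ratio of -0.16 (-0.30 to -0.02). The starts on the Hoxa10 side (52230279, 52230532 and 52231089), at and beyond Mir196b, held 608, 588 and 408 young fragments. Their ratios were -0.13 (-0.32 to 0.05), -0.16 (-0.35 to 0.03) and -0.17 (-0.39 to 0.06), and each interval included 0. The start of Mir196b, a microRNA gene, held 570 and 392 fragments (-0.13, -0.32 to 0.05). The windows of Mir196b and of the starts on the Hoxa10 side overlap and share fragments, so that they are not separate signals. Hoxa7 had another open start (52221854) with 1048 and 779 fragments and a ratio of -0.02, while a start between both (52218711) held 164 and 168 fragments, a ratio of 0.44 (0.12 to 0.76). Hoxa10 had 619 and 486 fragments at its far start (52240854), a ratio of 0.06 (-0.12 to 0.23).

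Age differences of promoters moved with their level in these libraries, and the members are set beside promoters of their own level. Of the 3153 promoters under 10 FPM, 29.7% were past the fold upward and 7.90% downward in the aged library, with a median of 0.14. Hoxa2, Hoxa6, Hoxa9 and Hoxa11 belonged to this level, and none of them was past the fold upward. Of the 2893 promoters from 10 to 20 FPM, with Hoxa4 and Hoxa10, 6.64% were higher, and the median was -0.02. Of the 5405 promoters from 20 to 40 FPM, with Hoxa3, Hoxa5 and Hoxa7, 0.648% were higher and 0.981% lower, with a median of -0.09 and quartiles of -0.15 and -0.02. Hoxa5, at 0.25, lay above the upper quartile of its level.

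The whole cluster, 105 kb in length, was likewise level. It held 18224 young and 13923 aged fragments, or 525 and 532 FPM, a ratio of 0.02 (-0.01 to 0.05), and the 87.3 kb over 1 kb away from the 9 starts had a ratio of 0.04 (-0.0025 to 0.08). The 30.4 kb from the Hoxa5 to the Hoxa10 start, 28.8% of its length, held 57.3% of its young and 54.6% of its aged fragments. Of 211 bins in the cluster, 101 held 100 fragments or more. Past the fold, 16 (15.8%) were higher and 7 (6.93%) lower in the aged library, beside 21.7% and 10.3% of 182068 bins over the autosomes and chromosome X. With short fragments only, 4 of 43 tested bins were higher and 7 lower, and in cells thinned to 3000 fragments 3 of 31 were higher and 6 lower. Which direction was the more frequent thus depended on the setting. No share over the genome was taken under these settings, so whether the cluster differs there from other bins is not known.

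**Figure D3:**
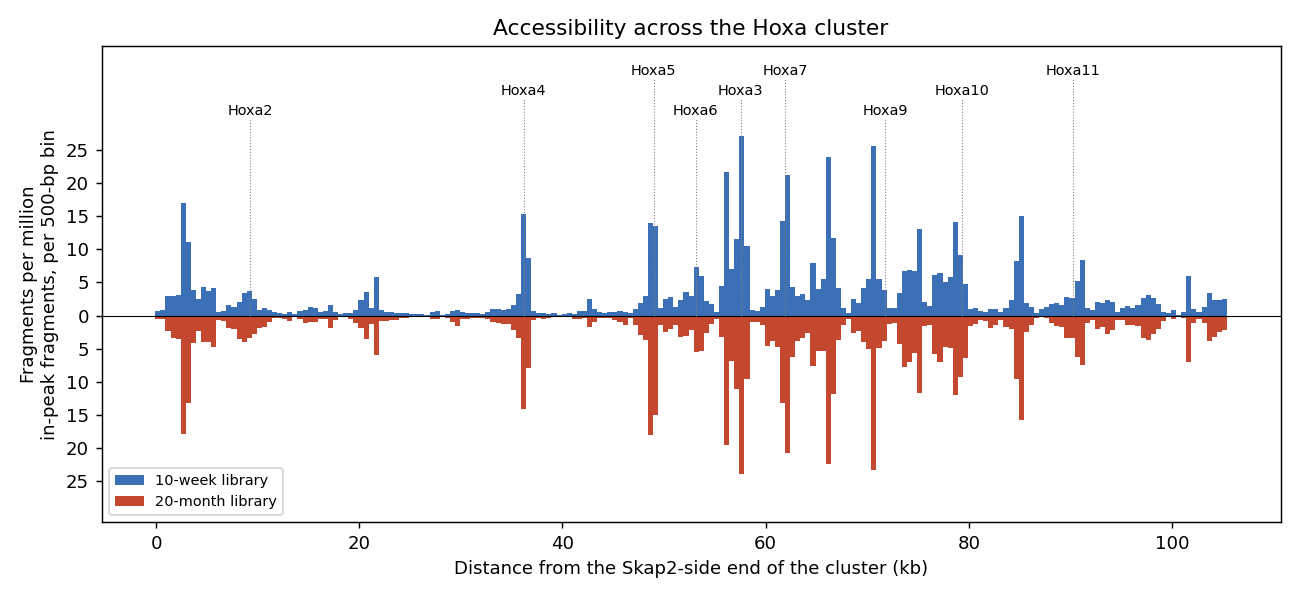
FPM in each 500-bp bin of the Hoxa cluster, in kb from its end on the Skap2 side, with the 10-week library drawn upward and the 20-month library downward, and dotted lines at the TSS of the 9 genes. The profiles mirror each other, with the tallest bins between Hoxa5 and Hoxa10.

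Within the cluster, most of the bins past the fold lay in weaker stretches. Of the 62 tested bins with a mean under 5 FPM, 13 were higher and 6 lower. Of the 39 with 5 FPM or more, 3 were higher and 1 was lower, among them the Hoxa5 and Hoxa6 bins described above. Over the genome, 29.2% of such weak bins were higher and 12.97% lower, and of the stronger ones 10.2% were higher and 6.14% lower. Among the tested bins of the cluster the highest ratio was that of the bin from 52163501 to 52164000, in an intron of Hoxa2, with 71 young and 92 aged fragments, or 2.05 and 3.52 FPM and a ratio of 0.78 (0.32 to 1.248). A bin in an intron of Hoxa7 (52218001 to 52218500) had 4.35 and 6.23 FPM, a ratio of 0.52 (0.19 to 0.85).

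The pair of adjacent bins in the cluster whose ratio intervals lay furthest below 0 had too few fragments for the minimum and was picked out after its values were seen. It lies in the untranslated end of Hoxa11 (52242501 to 52243500), 2310 bp from the Hoxa11 start on the side of Hoxa10. It held 63 and 14 fragments, or 1.82 and 0.535 FPM, a ratio of -1.76 (-2.71 to -0.91). No peak was called in it in either library.

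The flanks differed from each other by little, with a difference of 0.09 (0.01 to 0.16) between the Evx1 side and the Skap2 side. The 200 kb on the side of Skap2, a gene of an immune-cell adaptor protein, had 7440 young and 5706 aged fragments, a ratio of 0.02 (-0.03 to 0.07). The 200 kb beyond Hoxa13, which hold Evx1, a homeobox gene, and the long non-coding RNA gene Hottip, had 5753 and 4685 fragments, a ratio of 0.11 (0.05 to 0.17). Here 13 of 37 tested bins were higher and 0 were lower, against 7 and 1 of 31 on the Skap2 side, beside the 21.7% and 10.3% of the genome and the 29.2% higher among its bins under 5 FPM. The Evx1 promoter (TSS 52313498) had 73 young and 94 aged fragments, a ratio of 0.77 (0.31 to 1.23), whereas Skap2 (TSS 52012515) had 1812 and 1316, a ratio of -0.06 (-0.16 to 0.05). Of 28 genes with a start in the span outside the members and 100 fragments, 5 had a start past the fold upward (Evx1, its antisense Evx1os, Hoxa11os, Hoxaas2 and Gm27985) and 0 downward. All 5 lay under 10 FPM at that start, the level at which 29.7% of protein-coding promoters were past the fold upward. Evx1 and Evx1os start next to each other and count nearly the same fragments (73 and 94, and 74 and 95), so that they are 1 signal. The antisense RNA gene Hoxa11os shares its stretch with Hoxa11, and unstranded fragments do not tell them apart.

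**Figure D4:**
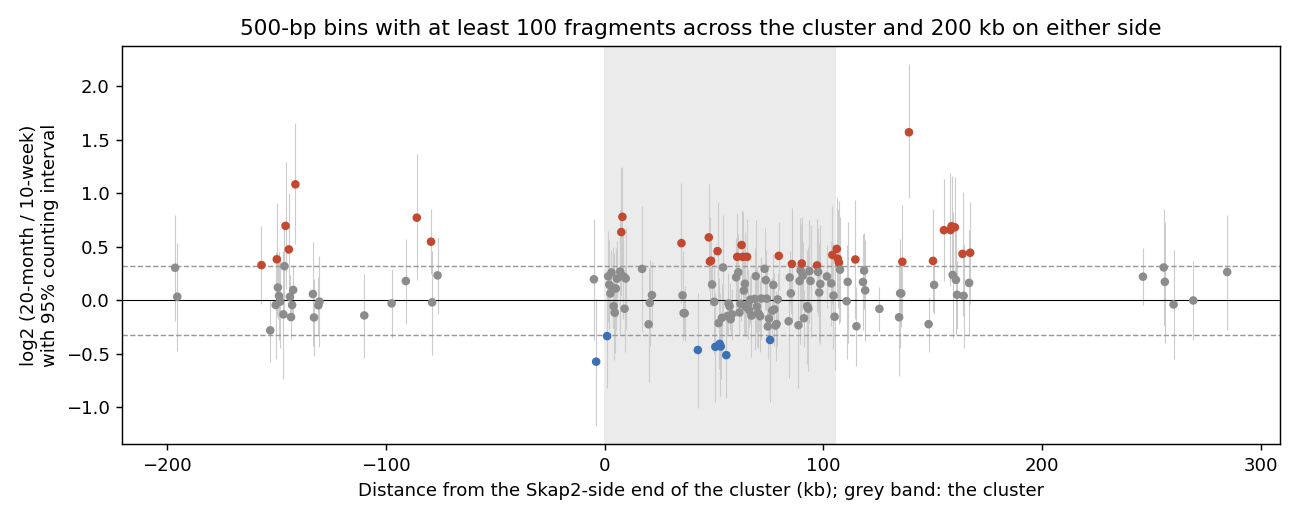
The log2 ratio of aged to young FPM, with its exact binomial 95% interval, for each 500-bp bin with at least 100 fragments, by distance from the end of the cluster on the Skap2 side (grey band: the cluster; dashed lines: the fold, 0.32 either way). Points past the fold upward are red and those past it downward are blue. Among these the highest, at 1.57, lies beyond Hoxa13, and the 7 lower bins of the cluster reach no further than -0.51.

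Among tested bins of the span the highest ratio was that of a bin on the Evx1 side (52294501 to 52295000), with 33 young and 74 aged fragments, or 0.952 and 2.83 FPM and a ratio of 1.57 (0.96 to 2.21). A peak called in both libraries lies in it, in intergenic sequence 18662 bp from the Evx1 start. The peak held 30 and 69 fragments, a ratio of 1.61 (0.97 to 2.28), and was singled out after its values were seen. Its sequence is shown for this ratio, with capitals at the letters CCAAT, at the AP-1 letters TGANTCA and at the HOX and PBX letters TGATTNAT.
Evx1-side peak, chr6:52294711-52294960, plus strand: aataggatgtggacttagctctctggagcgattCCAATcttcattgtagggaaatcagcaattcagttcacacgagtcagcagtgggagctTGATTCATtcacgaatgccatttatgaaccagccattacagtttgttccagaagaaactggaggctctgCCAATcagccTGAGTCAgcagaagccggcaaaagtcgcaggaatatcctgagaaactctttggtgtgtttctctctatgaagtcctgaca
It held CCAAT at 2 positions, TGANTCA at 2 and TGATTNAT at 1, the last of which overlaps 1 of the TGANTCA matches. Of all 167304 peaks, 25.6% held CCAAT, 10.9% TGANTCA and 3.39% TGATTNAT in their central 250 bp.

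In all, 43 peaks lay in the cluster, of which 32 were called in both libraries, 6 only in the young and 5 only in the aged. Among the peaks of the span with most fragments were the Skap2 promoter (52011611 to 52013150; 2214 young and 1615 aged fragments), an exon of the antisense gene Hoxaas3 at the Hoxa3 start (52213201 to 52213610; 947 and 645, -0.15, -0.29 to -0.0018), the Hoxa9 peak in its untranslated region (52226031 to 52226560; 904 and 619, -0.14) and the Hoxa7 start (52221491 to 52221990; 833 and 590, -0.09). Among peaks with 100 fragments the highest ratios were 0.78 (52069591, beyond Skap2), 0.51 (52259611, in an intron of Hoxa13) and 0.50 (52322641, beyond Evx1), and the lowest were -0.41 (52198191, in an intron of Hoxa3), -0.32 (52260861) and -0.32 (52160251, in an intron of Hotairm1, a non-coding RNA gene), and of these 6 only the first had an interval (0.19 to 1.38) that excluded 0. Of the 37 such peaks in the cluster, 5 were past the fold upward and 2 downward, beside 20.3% and 12.4% of 97287 such peaks over the autosomes and chromosome X. Within Hoxa10, adjacent peaks went apart, since the coding exon (52233941 to 52234760) had 634 and 413 fragments (-0.21, -0.39 to -0.03) and the peak at the start (52234841 to 52235140) had 221 and 207 (0.31, 0.03 to 0.59). The core of the CTCF motif occurred 6 times in the cluster on either strand, 3 of them in peaks. Of all 167304 peaks, 10.0% held it in their central 250 bp, and 3.36% of all promoter windows held it. These shares are of windows of fixed length, whereas the matches in the cluster were taken over whole peaks. The most open match was in the Hoxa7 peak (52221809), with 656 young and 458 aged fragments within 100 bp, a ratio of -0.11 (-0.29 to 0.06).

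The other Hox clusters stood higher in the aged library, unlike Hoxa. The 10 Hoxb promoters summed to 93.6 FPM in the young and 117 FPM in the aged library, a ratio of 0.32 (0.25 to 0.40), the 9 Hoxc promoters to 50.5 and 59.9 FPM (0.25, 0.15 to 0.35) and the 9 Hoxd promoters to 31.9 and 36.1 FPM (0.18, 0.05 to 0.31). The ratio of the 9 Hoxa promoters was below that of Hoxb by 0.33 (difference -0.33, -0.43 to -0.24), of Hoxc by 0.25 (difference -0.25, -0.37 to -0.14) and of Hoxd by 0.19 (difference -0.19, -0.33 to -0.05). Across the whole clusters the differences were -0.23, -0.23 and -0.18, and their intervals also excluded 0. Past the fold were 4 of 9 tested Hoxb promoters, 2 of 9 Hoxc promoters and 3 of 9 Hoxd promoters, each upward and none downward, beside 8.13% of all promoters and 29.7% of those under 10 FPM, to which most of these promoters belonged. Hoxb7 had 6.57 and 11.9 FPM (0.86, 0.61 to 1.11) and Hoxb9 10.8 and 15.1 FPM (0.48, 0.28 to 0.69). Hoxb9 and Hoxb2 (14.4 and 19.7 FPM, 0.45, 0.27 to 0.63) lay from 10 to 20 FPM. At that level 6.64% of promoters were past the fold upward, with a median of -0.02. The median levels of the Hoxb, Hoxc and Hoxd promoters in the young library were 8.46, 6.17 and 2.999 FPM beside 12.8 FPM for the Hoxa members, and promoters of low level were higher with age across the genome, as given above.

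**Figure D5:**
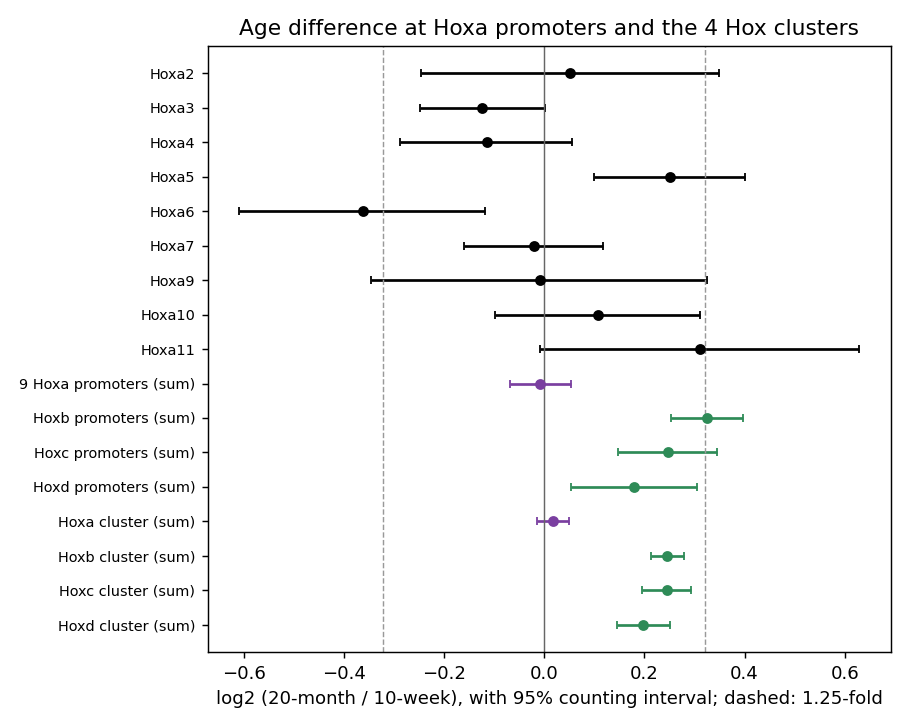
The log2 ratio of aged to young FPM with its 95% counting interval for each of the 9 Hoxa promoters and for sums over the promoters and the full spans of the 4 Hox clusters (dashed lines: the fold). The Hoxa sums lie at 0 while those of Hoxb, Hoxc and Hoxd lie between 0.18 and 0.32.

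Among the listed promoters of genes that act with, on or after Hoxa, Men1 had the lowest ratio of aged to young. The counts stand beside the 8.13% upward and 2.67% downward of all promoters. Meis2, Cdx1 and Lmo2, named below, lay under 10 FPM, where 29.7% of promoters were past the fold upward and 7.90% downward. Of 9 cofactors, 1 (Meis2, 4.18 and 5.73 FPM, 0.46, 0.12 to 0.79) was past the fold upward and 0 downward, with a median of 0.04. Meis1, the main partner of Hoxa9 in HSCs, had 33.8 and 35.2 FPM (0.06, -0.07 to 0.18). Of 20 regulators, with median levels of 40.9 and 36.3 FPM, 0 were past the fold upward and 2 downward, with a median ratio of -0.16. Kmt2a, which encodes MLL, had 49.6 and 45.6 FPM (-0.12, -0.23 to -0.01). The 2903 promoters of 40 FPM or more, its level, had a median of -0.10 and quartiles of -0.15 and -0.06. Men1, which encodes menin, had 2496 young and 987 aged fragments, or 72.0 and 37.7 FPM, a ratio of -0.93 (-1.04 to -0.83). Cdc42bpg, 28.6 kb away, had a like ratio of -0.84 (-0.96 to -0.71), and fragment counts do not tell less open DNA from fewer copies of it. The other was Cdx1 (3.32 and 2.52 FPM, -0.39, -0.85 to 0.05). Of the 13 tested Hoxa9 target genes, 1 was higher (Lmo2, 3.78 and 5.50 FPM, 0.54, 0.19 to 0.90) and 1 was lower (Flt3, the receptor that the sort selected against, 30.6 and 23.0 FPM, -0.41, -0.56 to -0.27), with a median of -0.12.

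In single cells, each thinned to 3000 fragments, 25.9% of young (24.6 to 27.1) and 24.3% of aged HSCs (22.8 to 25.7) had a fragment at any of the 9 promoters, and no cell was left out as too shallow. Without thinning the shares were 62.1% and 62.8%. Hoxa3 was marked in 7.43% and 6.32% of cells, Hoxa7 in 5.67% and 5.11%, Hoxa5 in 4.93% (4.34 to 5.58) and 5.76% (4.999 to 6.59), and Hoxa6 in 2.46% (2.04 to 2.93) and 1.56% (1.17 to 2.03). The intervals of Hoxa6 did not overlap and those of Hoxa5 did. At 5000 fragments, with 4658 young and 3151 aged cells kept, those of Hoxa6 (3.21 to 4.32 and 2.13 to 3.29) overlapped. Without thinning those of Hoxa6 overlapped (6.55 to 8.03 and 5.38 to 7.03) and those of Hoxa5 did not (12.7 to 14.7 and 16.2 to 18.8). Shares without thinning are not at equal depth, since the aged cells were the deeper ones. The 5 T lymphoid genes, which HSCs should lack, were marked in 0.0614% (Cd8a) to 0.246% (Cd4) of young cells and in 0.0294% to 0.118% of aged cells, and Cd3e was the only one with no lower share in the aged library (0.102% and 0.118%). The B lymphoid gene Ebf1 reached 1.72% and 2.32%, so that the shares of Hoxa2 (1.04% and 1.06%), Hoxa9 (0.880% and 1.03%) and Hoxa11 (1.02% and 1.03%) did not exceed its level. The Hoxa9 share is that of its principal start alone. It leaves out the more open coding start inside the gene (52226189; 998 young and 675 aged fragments). The share of Hoxa6 lay above that of Ebf1 in the young library and below it in the aged library. Hoxa10 (2.68% and 2.38%) lay above it in the young library and close to it in the aged library. Cells with fragments at 2 or more members made up 3.60% of young (3.10 to 4.16) and 3.20% of aged cells (2.64 to 3.85), with at most 4 and 3 members in 1 cell.

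Fragments at the 9 promoters were shorter than the DNA around 1 nucleosome in 66.0% of young (64.7 to 67.3) and 62.3% of aged cases (60.7 to 63.8). The difference was -3.69 percentage points beside -3.31 over all protein-coding promoters. The share was highest at Hoxa5 (81.2% and 77.7%) and lowest at Hoxa11 (39.0% and 34.2%) and Hoxa9 (41.5% and 38.6%). It was lower in the aged library at all 9 members, with differences from -0.461 points at Hoxa10 to -6.21 points at Hoxa7. With only these short fragments, Hoxa5 and Hoxa6 had ratios of 0.28 (0.11 to 0.45) and -0.43 (-0.77 to -0.09). With only the longer fragments the intervals of both included 0, with ratios of 0.31 (-0.02 to 0.65) and -0.35 (-0.72 to 0.01).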

How the data were processed

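The authors deposited, for each library, a list of fragments with the count of read pairs behind each, and a table of counts per barcode. Per the labels these came from Cell Ranger ATAC, with mm10 as the build and Signac named as a further tool. The version that the study's methods give and the layout of the deposited tables do not match, so no version is stated. Depth was 73711513 read pairs and 53786133 unique fragments in the young and 63744997 and 48333115 in the aged library. Intervals cover counting error only.

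Coordinates were used with GRCm38 (the same build as mm10) and GENCODE M21. Each TSS was that of the principal coding transcript. A fragment counted once where 1 of its ends lay in a window. Peaks were called per library on cut sites (windows of 151 bp, local mean over 10000 bp, Poisson q under 0.001) and merged, which gave 167304. Doublets were not removed. A feature was past the fold at 1.25-fold with 100 fragments over both libraries. With 1 library per age no test and no p-value were used. The alternatives were other scalings, windows, fragment lengths, cells, depths, peak limits and filters.

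The members, lists and markers were chosen with earlier results of these data known, and the bands of level were added after the values were seen. Named were all members, neighbours with 100 fragments, the largest peaks (4 of 5 are given, and the other is not reported here) and the 3 highest and lowest ratios among peaks of 100 fragments, and at most the 4 highest and lowest of each list. The scripts were tested on simulated data. Python 3.11.15 with NumPy 2.4.6, pandas 2.3.3 and SciPy 1.17.1 was used.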

Additional observations from a re-analysis of the deposited data

Results flagged for a closer look

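Barcodes that lay within the limits on fragments in peaks but had not been called as cells lie outside the comparisons of ages and also held fragments at the Hoxa promoters. In the young library 123 such barcodes held 76 fragments at the 9 Hoxa promoters, or 177.1 FPM (exact Poisson 95% interval 139.5 to 221.7), beside 147.8 FPM in the cells. In the aged library 131 such barcodes held 81 fragments, or 152.2 FPM (120.9 to 189.2), beside 146.97 FPM in the cells. In the aged library the interval includes the level of the cells, and so does that of the young library.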

How the results depend on the processing

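Of 144 values of single member promoters under other settings, 139 stayed within the interval of the reported value. Only Hoxa6 was past the fold, so that only its values could reverse a call, and 0 did. Values above 0 numbered 13 of 16 for Hoxa2 and for Hoxa10, 7 for Hoxa9 and 5 for Hoxa7, so that their sign changed between settings. The 9 values that count any overlap could hardly move and are among these 139. So are those with further limits on cells, which kept 3403 of 3404 aged cells. The 5' end of the gene is the principal start itself for Hoxa2, Hoxa4, Hoxa5, Hoxa6 and Hoxa11. Hoxa6 was past the fold in 12 of 16 settings (-0.65 to -0.12), Hoxa5 in 0 (0.22 to 0.32) and Hoxa11 in 3 (0.01 to 0.80). Hoxa7 was -0.30 in the cells below the median depth and 0.14 in the others. The sum of the 9 promoters became 0.063 scaled to all promoter fragments, 0.059 scaled to the median promoter ratio and -0.091 with cells thinned to 3000 fragments, and the cluster became -0.015 scaled to all nuclear fragments. Members past the fold became 1 higher and 0 lower under scaling to promoter fragments, under the median ratio and in cells below the median depth, and 0 lower with windows of 1000 bp. Tested bins of the cluster numbered 43 (4 higher, 7 lower) with short fragments only, 31 (3 higher, 6 lower) in thinned cells and 63 (6 higher, 2 lower) at a minimum of 200 fragments. At a minimum of 50 fragments 33 of 145 were higher and 12 lower, and with bins moved by 250 bp 17 of 106 were higher and 4 lower. No share of bins over the genome was taken under these settings. The cause was not tested beyond the fewer or more fragments that these settings use. Cells with a fragment at the 9 promoters were 39.5% young and 37.9% aged at 5000 fragments and 62.1% and 62.8% without thinning. The short share, under 100 bp, was 55.7% and 52.5%. Counting any overlap gave the same values as counting ends. Peaks in the cluster stayed within 1.5 times of 43. No paired analysis was possible because each age has 1 library and no result comes from a test. Leaving out a replicate was not possible for the same reason.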

Other observations

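The low Men1 promoter did not stand alone, as seen after its value was known. Cdc42bpg, a kinase gene whose start lies 28.6 kb from that of Men1 on chromosome 19, had 1866 young and 789 aged fragments, or 53.8 and 30.2 FPM, a log2 ratio of -0.84 (exact binomial 95% interval -0.96 to -0.71). Other neighbours lay nearer to the median of all promoters. Map4k2, 6.12 kb from Men1, had 38.4 and 33.8 FPM (-0.19, -0.31 to -0.06), and Sf1, 28.7 kb from Men1, had 111 and 101 FPM (-0.14, -0.21 to -0.06). Fragment counts do not tell less open DNA from fewer copies of it, and what set Men1 and Cdc42bpg apart was not tested.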
